A study of Caenorhabditis elegans with 2 samples.

Results

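The gene described here is oef-1 (sequence name F49E8.2, WBGene00018636), which encodes the protein whose chromatin sites were mapped in this series. It is 1 of 19973 protein-coding genes on the nuclear chromosomes of Caenorhabditis elegans. Its peaks were taken as every summit in the gene body or within 2 kb on either side, a stretch of 7103 bp at chrIV:7546417-7553519 on ce11. That stretch held 2 of the 1339 peaks that the authors kept in their optimal list. It also held 10 candidates of the pooled list, 11 of replicate 3 and 6 of replicate 4.

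The samples were 2 chromatin immunoprecipitation sequencing libraries from whole hermaphrodites of strain OP383 at the L4 stage, collected 52 h after release from starvation-synchronized L1. They form 1 group, and the labels number them biological replicates 3 and 4. Both carry unc-119(tm4063) on chromosome III and wgIs383, a transgene in which the oef-1 product ends in GFP and FLAG, and anti-GFP antibody was used for the pull-down. The labels describe the insertion as targeting oef-1 and list no mutant allele of the resident gene, and reads of the added copy cannot be told apart from reads of that gene. For wgIs383, copy number and extent were not stated in the labels. Nothing in the labels ties the 2 samples to separate cultures beyond the word biological. No untagged sample and no control alignment was analysed here, so the part played by the added copy in any value below was not tested.

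OEF-1, whose name stands for oocyte-excluded factor, is a nuclear protein of the C. elegans germ line that is absent from maturing oocytes. Worms lacking it move germ cells through their stages too early. The RefSeq annotation calls the product a C2H2-type domain-containing protein, a class that includes many DNA-binding zinc fingers. A chromatin factor that sits on its own gene is a familiar arrangement among regulators, but a peak alone does not show an effect on transcription.

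The oef-1 gene lies on the plus strand of chromosome IV at chrIV:7548417-7551519 (3103 bp) and has 8 exons. The annotation gives it 2 transcripts. F49E8.2a.1 begins at 7548417 and F49E8.2b.1 begins 26 bp further downstream, and their coding lengths are 1122 and 1116 bases. The first 5 introns are 43 to 52 bp long, whereas intron 6 spans 1162 bp. The locus is crowded. On the opposite strand pam-1, an aminopeptidase needed for embryonic polarity and exit from meiosis, has its most upstream 5' end at 7550812, inside intron 6 of oef-1, so that most of oef-1 lies within the first introns of the longer pam-1 transcripts. The cytidine deaminase gene cdd-2 faces away from oef-1, with its 5' end 524 bp upstream of that of oef-1. Downstream, dif-1, a mitochondrial carrier gene, runs towards oef-1, and F49E8.6 follows.

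The sequence at the 5' peak is shown because its base composition and 6-mers are described below. The first line is the part of the 5' peak upstream of the gene (chrIV:7548330-7548416, ce11, plus strand). The second is the stretch between the annotated starts of the transcripts, which holds the summit (chrIV:7548417-7548442). Both were read from the RefSeq copy of the same assembly. Capitals mark the 6-mers discussed below and, as a single letter, the optimal summit.
oef-1 upstream: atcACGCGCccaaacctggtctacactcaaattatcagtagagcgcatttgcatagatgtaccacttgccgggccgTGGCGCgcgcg
oef-1 start: cgcattacaaAagtcaaaaaaatgcg

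The stronger peak sat at the start of oef-1. In the optimal list its interval was chrIV:7548330-7548562, 233 bp wide, with the summit at 7548427 and a signal of 221. The signal is the authors' own value for each peak, on a scale that is not stated, and is used here only to rank peaks within a list. By that signal the peak ranked 84th of 1318 nuclear optimal peaks, above 93.6% of them, 23rd of 287 on chromosome IV and 41st of 635 within 500 bp of a coding 5' end.

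The summit fell on the gene's own start in every list. It lay 10 bp downstream of the 5' end of F49E8.2a.1 and 16 bp upstream of that of F49E8.2b.1. In replicate 3 the summit was 4 bp and in replicate 4 it was 19 bp downstream of the first of these ends. In all 4 lists on ce11 it therefore fell between the annotated starts, inside the 5' untranslated region of the longer transcript. The optimal and pooled lists hold the same peak, made from both replicates, so only the replicate lists are separate placements. The replicates placed the summit 15 bp apart. Over the 1290 of 1318 nuclear optimal summits with a counterpart within 200 bp in both replicates, the median spacing was 32 bp (quartiles 14 and 62.8).

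Most bound genes had their summit further upstream. Among 772 coding genes with an optimal summit within 500 bp of the 5' end, which is 3.87% of all coding genes, the strongest such summit had a median position of -183 bp (quartiles -291 and -56.8). It lay at or downstream of the 5' end at 131 genes. A summit within 10 bp of the 5' end in either direction, as at oef-1 in the optimal list, was found at 22 of the 772 (2.85%). This share holds for the first annotated oef-1 end only. The optimal summit was at -16 bp from the later end, and the replicate 4 summit at 19 bp from the first. Trans-splicing of a leader hides the transcription start of many worm genes, so these distances are from the annotated end alone.

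**Figure D1:**
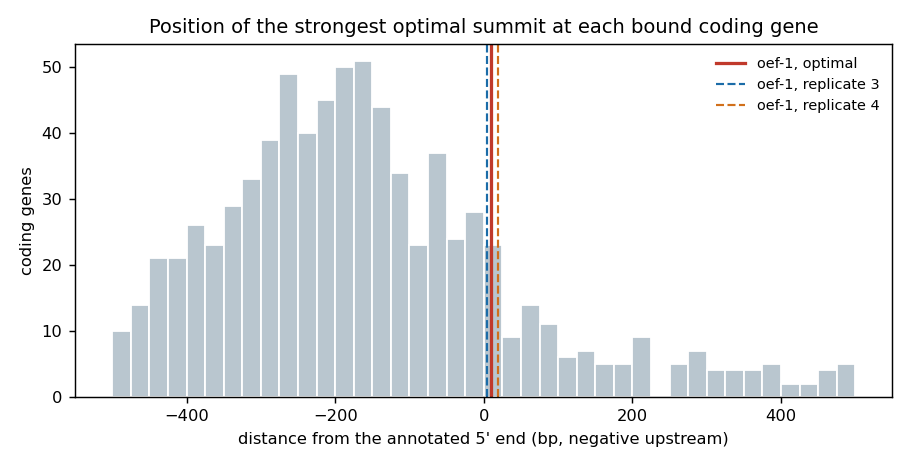
Number of coding genes (y axis) by the position of their strongest optimal summit relative to the annotated 5' end (x axis, bp, negative upstream), for the 772 bound genes. A peak near the 5' ends of several genes is counted for each of them. The vertical lines mark oef-1 in the optimal list (10 bp), replicate 3 (4 bp) and replicate 4 (19 bp), all to the right of the median of -183 bp.

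The 2 replicates ranked this peak differently. In replicate 3 it had a signal of 172 and ranked 68th of 29982 nuclear candidates. In replicate 4 it had a signal of 38.7 and ranked 394th of 23577. Both ranks are within the 1339 strongest peaks of each replicate, but the place there was lower in replicate 4, above 70.6% of those peaks against 94.9% in replicate 3. The 100 optimal peaks nearest to it in signal, 50 on either side, give a scale for this, chosen after the values were seen. In replicate 3 the oef-1 peak stood at the 99.8th percentile of the candidates and the median of the 100 was 99.7, with 66 of them lower. In replicate 4 it stood at the 98.3th percentile against a median of 99.5 (quartiles 99.2 and 99.7), with 6 of the 100 lower. The high rank in the optimal list thus came with a higher rank in replicate 3 than in replicate 4. With 1 value per replicate there is no test of this difference.

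The second optimal peak lay inside oef-1 but at the start of another gene. Its interval was chrIV:7550500-7550939, 440 bp wide, with the summit at 7550720, 2303 bp downstream of the oef-1 5' end, in intron 6. The nearest coding 5' end was that of pam-1, 92 bp away, with the summit downstream of it in the sense of pam-1 and in the first pam-1 intron. Its signal of 103 placed it 660th of 1318 nuclear optimal peaks, at the middle of the list. Replicate 3 gave a signal of 73.7 (rank 707) with the same summit, and replicate 4 a signal of 27.9 (rank 900) with a summit 46 bp nearer the pam-1 5' end. The replicates' spacing of 46 bp was larger than that of 62.9% of the nuclear optimal summits found in both.

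In this case the replicates gave like places. Beside its 100 neighbours in signal, the intron peak stood at the 97.6th percentile in replicate 3 (median 97.7) and at the 96.2th in replicate 4 (median 96.7, over 99 neighbours with a counterpart). It was higher than 47 of 100 and 42 of 99 of them.

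**Figure D2:**
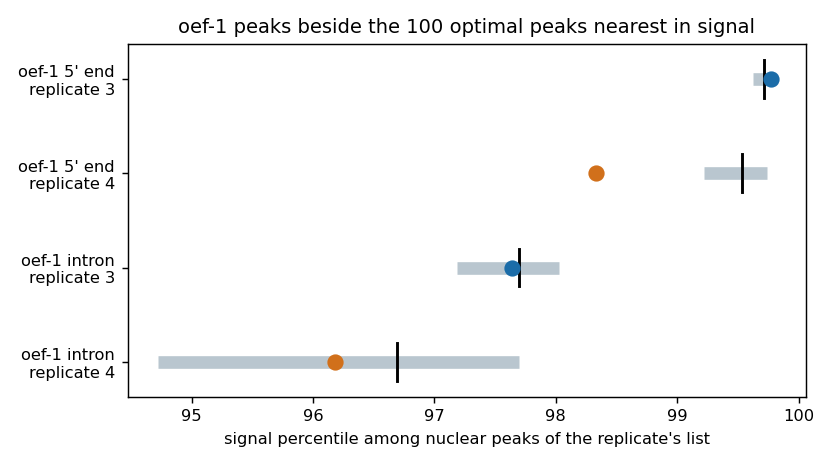
Signal percentile among the nuclear candidates of each replicate (x axis) for both oef-1 peaks. Points are the oef-1 peaks, grey bars the quartile range and black ticks the median of the 100 optimal peaks nearest in signal. The peak at the oef-1 5' end lies left of the grey bar in replicate 4 (98.3 against quartiles of 99.2 and 99.7) and within it in the other 3 rows.

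Counted by gene, an optimal summit in the body or 2 kb on either side was found at 10.8% of coding genes, and 2 or more such summits, as at oef-1, at 2.24%. Both oef-1 summits lay in the body itself. That held for 49 coding genes, 0.245% of the total, oef-1 and pam-1 among them. In those 49, a comparison added after the data were seen, a summit at the gene's own 5' end together with another at the 5' end of a coding gene starting inside it on the opposite strand was found at 2 genes. These were oef-1 and pam-1, which share the same 2 peaks. Since pam-1 holds both summits in its span and has one of them at its 5' end, it counts as bound on the same evidence.

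Between and around these sites lay weaker candidates, which the authors' lists keep on purpose together with background. In the body of oef-1 the pooled list had 3 more. One lay in coding exon 5, 1013 bp into the gene, and its signal of 44.5 put it at percentile 89.8 of pooled candidates. Another lay in coding exon 7 (32.5, percentile 81.2), its interval overlapping that of the intron peak, and the last in the 3' untranslated region (25.2, percentile 68.2). The exon 5 candidate had a counterpart within 200 bp in both replicates, at percentile 93.2 in replicate 3 and, in coding exon 6, at percentile 81.2 in replicate 4. The candidate in the 3' untranslated region had one in replicate 3 only, at percentile 92.1. For the exon 7 candidate, the summit found in replicate 4 is the one that also answers to the intron peak.

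Outside the body, the strongest pooled candidate lay beyond dif-1. Its summit was in the 3' untranslated region of F49E8.6, 215 bp upstream of the most upstream annotated dif-1 5' end. With a pooled signal of 61.4, it lay below the lowest nuclear optimal signal of 74.0 by 465 places. It was placed differently by the replicates. In replicate 3 its signal of 32.9 ranked 3207th, and in replicate 4 its signal of 30.0 ranked 759th, ahead of the peak in oef-1 intron 6. Next to cdd-2, the pooled list had a candidate in cdd-2 coding exon 2, 295 bp from the cdd-2 5' end (31.3, percentile 79.8), and one further on in introns of pam-1 (26.6, percentile 71.6). Both had counterparts in replicate 3, at percentiles 83.1 and 91.2, and none within 200 bp in replicate 4. In replicate 3 the candidate in pam-1 introns was thus above the one beyond dif-1 (percentile 89.3). No list on ce11 had a summit in the 524 bp between the cdd-2 and oef-1 5' ends. The last 2 pooled candidates lay in dif-1 (29.4 and 36.7).

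**Figure D3:**
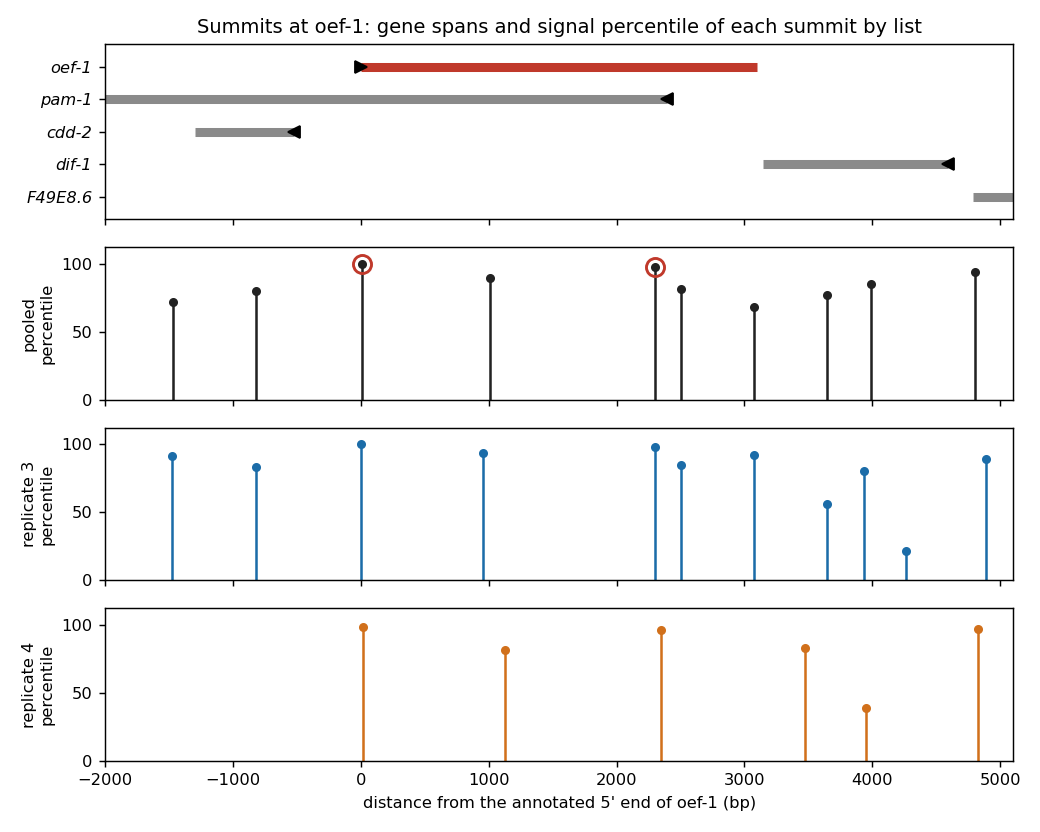
Gene spans at the oef-1 locus (top; arrowheads mark annotated 5' ends and direction) and, below, each candidate summit by its distance from the oef-1 5' end (x axis, bp) and its signal percentile among nuclear peaks of that list (y axis). The 2 pooled summits circled in red, 10 and 2303 bp downstream of the oef-1 5' end, are the optimal peaks. Replicate 4 has 6 summits where replicate 3 has 11, and none upstream of oef-1.

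In all, 10 of 10 pooled candidates of the locus had a summit within 200 bp in replicate 3 and 7 of 10 in replicate 4. All 10 were among the 14990 strongest nuclear pooled candidates, of which 13493 had a summit within 200 bp in replicate 3 and 9372 in replicate 4. The locus was dense in candidates. It held 1.41 pooled summits per kb, against a median of 0.255 per kb over all coding genes with the same flanks and of 0.803 per kb over the 2167 with an optimal summit. The oef-1 value was above 94.6% of those 2167 genes. In replicate 3 it was above 97.3% of them (1.55 per kb) and in replicate 4 above 75.4% (0.845 per kb).

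The dense stretch reached well past the gene, mostly downstream. Counting candidates less than 5 kb apart, a distance set after the data were seen, a run of 29 pooled summits extended over 20071 bp from 4729 bp upstream to 15342 bp downstream of the oef-1 5' end. It overlapped 10 coding genes and held no optimal summit other than those of oef-1. The importin alpha gene ima-3 lay in it, with 3 pooled candidates within 500 bp of its 5' end. Upstream the run ended in a gap of 30697 bp without a pooled candidate, longer than 99.4% of the gaps on chromosome IV, over the long gene R05G6.10. In the 40 kb centred on oef-1 there were 29 pooled summits, more than in 93.5% of windows of that size on chromosome IV (median 15). The values were 31 in replicate 3 (97.3%) and 20 in replicate 4 (93.0%). That place depends on the window: it was 99.4% for 20 kb and 75.1% for 80 kb. A second dense stretch lay 60 kb upstream, where histone genes had optimal peaks and a 10 kb bin held 10 pooled summits, against 13 in the bin centred on oef-1.

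**Figure D4:**
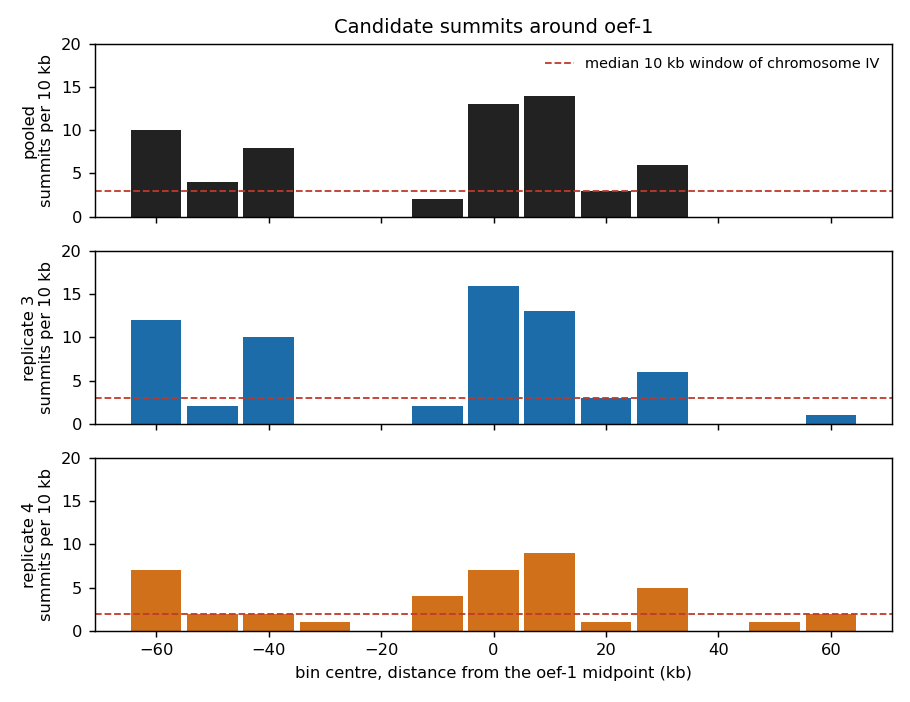
Candidate summits per 10 kb (y axis) in bins centred 0 to 60 kb from the midpoint of oef-1 (x axis, kb) in the pooled list and in each replicate. The dashed line is the median of 10 kb windows of chromosome IV. The bin on oef-1 holds 13 pooled summits and its downstream neighbour 14, and the bins 20 and 30 kb upstream hold 0.

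The sequence at the oef-1 start was GC-rich and that in intron 6 was not. Within 50 bp of the summit the GC content was 53.5% at the 5' peak, above 84.2% of nuclear optimal summits, and 28.7% at the intron peak, above 4.40% of them. The median was 44.6% over the optimal summits and 35.6% over coding 5' ends. Each of the 3 6-mers searched had been picked in an earlier look at these peaks, so their presence is a description only. On either strand, GCGCCA was found within 50 bp of the 5' summit, ending 6 bp before the 5' end as TGGCGC. That 6-mer was present at 11.2% of optimal summits and in 1.52% of same-sized windows on coding 5' ends. ACGCGC was found at -84 bp, inside the peak but outside that window, and at -188 bp on the minus strand, upstream of the peak. It was present at 10.9% of summits and 1.28% of 5' ends. GGCGCA, present at 14.0% of summits and at 299 of 19973 5' ends, was not found in the whole 7103 bp. None of the 3 was within 50 bp of the intron summit, as was the case at most optimal summits, since 25.5% of them had any.

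The TGGCGC at the 5' peak was part of a longer run. The 13 bases GGCGCGCGCGCGC, from 10 bp before the 5' end to 2 bp past it, are all G or C. In 99.2% of optimal summits and 99.6% of coding 5' ends the longest such run within 50 bp was shorter, a measure chosen after the sequence was seen. At the intron summit the longest was 4 bases, against a median of 6.

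Several genes had a peak like that of oef-1 in both place and rank. Among 157 other coding genes with an optimal summit within 100 bp of, and nearest to, their own 5' end and with a counterpart in both replicates, the 5 closest to oef-1 in their percentiles in the optimal, replicate 3 and replicate 4 lists were suf-1, ndk-1, ints-4, pid-5 and D2096.7. Their distances from oef-1 over the 3 percentiles ran from 1.01 to 2.36, and the median of the 157 was 46.8. The 5 were chosen for the smallest distances, so their place below the median was fixed by the choice. The nearest, suf-1, a factor of mRNA 3' end cleavage, had an optimal signal of 216 and a summit 34 bp upstream of its 5' end. The nucleoside diphosphate kinase gene ndk-1 (222) had its summit 21 bp upstream and the Integrator gene ints-4 (224) 7 bp upstream. The summit at pid-5 (234), of piRNA-dependent silencing, was 58 bp upstream, and that at D2096.7 (253) was 11 bp upstream. The 5 stood at percentiles 99.2 to 99.7 in replicate 4, where oef-1 stood at 98.3. Each had its summit upstream of the 5' end. That of oef-1 was downstream of its first annotated 5' end but at -16 bp from the later one, so this contrast depends on the end used.

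Among regulators of germline transcription and chromatin, oef-1 had the highest signal. The list of 32 such genes was written with earlier results of these peaks known, so it supports nothing by itself. Of these, 10 (31.3%), oef-1 itself among them, had an optimal summit within 500 bp of the 5' end, against 3.87% of all coding genes. At 7 of the 10 the summit was nearest to the gene's own 5' end, and at the others another gene's 5' end was nearer. The top peaks of replicate 3 held 9 of the 10, all but efl-1, and those of replicate 4 also held 9, all but ekl-1. The median signal of the 10 was 118, against 106 over all bound genes. After oef-1 came lin-54 (165), lin-53 (159) and lin-9 (132), members of the repressor complex DREAM. Their summits lay at -383, -228 and -130 bp, and of these lin-54 had another gene's 5' end nearer. Of the other members of that complex in the list, lin-35 and efl-1 were bound, and dpl-1, lin-37 and lin-52 were not. The summit of oef-1 was the nearest to its own gene's 5' end among the 10, the others lying at -438 to -117 bp from theirs. The peak counted for lin-54 lay at -10 bp from the 5' end of rpl-12, as near as that of oef-1 to its own.

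The marker gene of the strain had few candidates, as most coding genes did. At unc-119 (chrIII:10902641-10908935), with 2 kb on either side, there was no optimal summit, 1 pooled candidate at percentile 20.1, 2 in replicate 3 at or below percentile 9.03 and none in replicate 4. An optimal summit in such a stretch was found at 10.8% of coding genes, and the median count over coding genes was 2 in the pooled list, 2 in replicate 3 and 1 in replicate 4. The labels name unc-119 only by its mutant allele, and they do not state what rescue sequence the transgene carries.

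On ce10 the locus looked alike. No ce10 annotation was used, so the oef-1 peak was located there by the distances to neighbouring summits, which matched for 11 of 11 neighbours within 100 kb in the optimal list (next best position, 1). In the pooled list 73 of 89 matched (next best, 10), in replicate 3 71 of 92 (11) and in replicate 4 62 of 62 (7). The ce10 optimal list had 2 peaks in the same stretch, with summits at 7548413 and 7550709 on ce10 chromosome IV, signals of 220 and 102 and ranks of 84 and 670 of 1342. The pooled list had 11 candidates, replicate 3 had 10 and replicate 4 had 6. Of these, 10, 10 and 6 lay within 50 bp of the place, relative to the oef-1 summit, of a ce11 candidate.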

How the data were processed

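The deposited files were 8 peak lists, 4 on ce10 and 4 on ce11. Per the file headers and accompanying texts, each replicate's candidates came from its own alignment and a further file shared by both replicates. Pooled candidates came from both alignments, and the optimal list from all candidate lists by the irreproducible discovery rate. That rate is a measure of how alike peaks rank in replicates. On ce11 the lowest nuclear optimal signal (74.0) ranked 1318th of the nuclear pooled candidates. The 1318 nuclear optimal peaks were thus the strongest pooled candidates by signal. A place among them does not show that the replicates ranked that peak alike. The signal and the −log10 q-value of each peak are the authors' values in the deposited lists. The caller, the aligner and their versions are not given in these sources, and the depth of reads is unknown. All 1318 nuclear optimal ce11 peaks had the same −log10 q-value of 2.75, which was not used to rank.

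Summits (column 2 plus column 10, written 1-based) were set against the Ensembl release 115 annotation of WBcel235, the same assembly as ce11. Percentiles are the percent of nuclear peaks in the same list with a lower signal. The optimal list held 1318 nuclear and 21 mitochondrial peaks. Of the former, 885 were 440 bp wide, and 23541 of 23577 nuclear peaks of replicate 4 were 420 bp wide, so most widths are a fixed setting.

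Nothing was tested: there is 1 group, and genes and peaks are not replicates. The gene, 6-mers and gene list were chosen with earlier results of these data known. Genes were named by a written rule: oef-1, overlapping and adjacent genes, unc-119, the 5 genes most like oef-1 and the 4 strongest list members. R05G6.10, ima-3, efl-1, ekl-1, rpl-12, lin-35, dpl-1, lin-37, lin-52 and the histone genes fall outside it and were chosen after their values were seen. Counting functions were tested on simulated summits. Python 3.11.15, numpy 2.4.6 and pandas 2.3.3 were used.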

Additional observations from a re-analysis of the deposited data

How the results depend on the processing

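The count of 2 optimal summits at oef-1 was the same with 500 bp or 5 kb on either side and on ce10; it was 1 among the 500 strongest nuclear optimal peaks, and 2 to 3 with a replicate left out, the third being the candidate upstream of dif-1 in replicate 4 alone. The 10 pooled candidates became 5 with 500 bp and 16 with 5 kb on either side, and 6 to 11 with a replicate left out. The percentile of the 5' peak (93.6) was 70.6 with replicate 3 left out and 94.9 with replicate 4 left out. No list was remade for a replicate left out, and the other replicate's own candidate list was used. For this percentile and the count of optimal summits, the 1339 strongest nuclear peaks of that list took the place of the optimal list. They are a set unlike the 1318 nuclear optimal peaks behind 93.6. The summit position of 10 bp was -16 bp from the later annotated 5' end, and 4 to 19 bp with a replicate left out. The percentile of candidate density (93.5) was 99.4 in 20 kb windows, 75.1 in 80 kb windows, 98.3 for pooled candidates at or above the median signal, 88.6 on ce10, and 93.0 to 97.3 with a replicate left out. The 6-mers present rose from 1 to 2 within 100 bp and in the whole peak. Of the 32 germline regulators, 5 were bound within 200 bp in place of 10. A wider window or a lower limit adds summits by construction; for the others, the cause was not tested. No paired analysis was possible because there is 1 group. The unknown read depth limits what the absence of a candidate in replicate 4 shows.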
